A study of Mus musculus with 6 samples.

Results

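Cadherins and protocadherins are cell surface proteins that bind to one another in the presence of calcium. The genes described here were all those whose array probes map, through RefSeq, to a symbol that starts with Cdh and a number or with Pcdh, leaving out Cdh5, the endothelial cadherin. RefSeq lists 92 such genes, and 69 of them had a named probe, out of 22911 named genes on the array. They were read by 102 of 56605 probes. Where a gene had several probes, as 23 members did, the brightest one stood for it. The 23 genes without a named probe were 7 of the alpha and 16 of the gamma protocadherin cluster, and they were not analysed here.

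The study hybridised RNA of 3 groups of mouse lung samples to 1-colour Agilent arrays, with 2 samples per group and 6 arrays in all. Myofibroblasts were sorted by flow cytometry as CD49e+ Sca1- Lin- cells from lungs of bleomycin-treated male mice, where bleomycin is a drug that injures the lung and induces fibrosis. The steady-state fibroblasts were the CD140a+ Lin- cells of lungs of untreated male mice, and homogenates of untreated male lung served as controls. Per the labels each set was 50000 cells, and labelling used 5.8 ng of RNA. The gate and the treatment differed together between the sorted groups, so they cannot be told apart. Whether replicates are separate mice is not stated in the labels, so every p-value rests on the spread between these arrays, and that spread may be technical.

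Classical cadherins hold neighbouring cells together at adherens junctions, where their cytoplasmic tails bind catenins and, through them, actin. Epithelia are known for Cdh1 (E-cadherin), while mesenchymal cells such as fibroblasts are known for Cdh2 (N-cadherin) and Cdh11. Protocadherins share the extracellular cadherin repeats but lack the catenin-binding tail, and the clustered alpha, beta and gamma genes lie side by side, each driven from its own promoter and best known from neurons, which each express a subset.

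The windows just before the start sites of 4 single genes are shown first, because, of the members for which a window was at hand, these genes gave the largest called differences between the sorted groups. The sequences are the 250 bases before the RefSeq start site in build GRCm38.p6, written 5′ to 3′ on the strand of the gene, with CG dinucleotides in capitals. The coordinates are chr15:13173676-13173925 on the minus strand for Cdh6, chr14:84443313-84443562 on the plus strand for Pcdh17, chr5:57717831-57718080 on the plus strand for Pcdh7 and chr3:49757317-49757566 on the minus strand for Pcdh18.
Cdh6: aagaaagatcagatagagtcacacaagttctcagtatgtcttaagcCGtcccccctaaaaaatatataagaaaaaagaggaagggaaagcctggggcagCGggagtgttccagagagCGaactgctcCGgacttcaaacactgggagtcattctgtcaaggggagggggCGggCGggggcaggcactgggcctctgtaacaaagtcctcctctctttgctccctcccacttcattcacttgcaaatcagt
Pcdh17: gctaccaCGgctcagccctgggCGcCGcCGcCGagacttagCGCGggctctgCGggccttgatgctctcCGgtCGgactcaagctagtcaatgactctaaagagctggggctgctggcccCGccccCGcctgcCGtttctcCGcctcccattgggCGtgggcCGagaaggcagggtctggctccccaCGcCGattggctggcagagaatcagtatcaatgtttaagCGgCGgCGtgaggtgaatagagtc
Pcdh7: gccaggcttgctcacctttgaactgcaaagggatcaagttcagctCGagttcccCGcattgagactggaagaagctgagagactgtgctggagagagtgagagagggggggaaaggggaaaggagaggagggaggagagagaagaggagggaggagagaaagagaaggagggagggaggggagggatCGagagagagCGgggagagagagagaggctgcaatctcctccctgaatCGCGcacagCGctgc
Pcdh18: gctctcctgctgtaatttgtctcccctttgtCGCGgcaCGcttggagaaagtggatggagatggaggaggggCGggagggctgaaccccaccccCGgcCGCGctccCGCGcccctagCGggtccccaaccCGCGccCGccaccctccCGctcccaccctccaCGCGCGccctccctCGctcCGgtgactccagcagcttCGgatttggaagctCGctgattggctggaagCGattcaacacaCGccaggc

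The Pcdh18 and Pcdh17 windows held 23 and 21 CG dinucleotides, against a median of 6 over 27025 genes with a window. Those of Pcdh7 and Cdh6 held 7 and 6. Their GC content was 68%, 64.8%, 58.4% and 51.2%, beside a median of 52%. Windows were at hand for 22 of the 69 members. The search on both strands covered the E-box CAGGTG, the TATA motif TATAAA, the CArG box, and the SMAD motifs CAGAC and GTCTAGAC. The single match in the 4 windows was a CAGAC in Pcdh17, at base -76 from the start site, a motif that 42.1% of all windows hold. The shares of all windows for the others were 17.1% for CAGGTG, 13% for TATAAA, 1.4% for the CArG box and 0.174% for GTCTAGAC.

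Signals are given relative to the array, as the spot signal divided by the 75th percentile of all spots on that array, and a probe counted as read on an array when the scanner software marked it well above background. By this rule 37 members were read on all 6 arrays, 25 on some and 7 on none. The 7 were Cdh10, Cdh12, Cdh17, Cdh20, Pcdha4, Pcdha11 and Pcdhb2. In each of the 3 groups 46 members were read on both arrays, and 53 members, or 76.8%, were read on both arrays of at least 1 group, against 76% of all named genes. Among the larger classes, this mark was reached by 6 of 6 gamma genes, 19 of 22 beta genes, 12 of 17 classical cadherins of type I and II and 4 of 7 alpha genes.

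**Figure D1:**
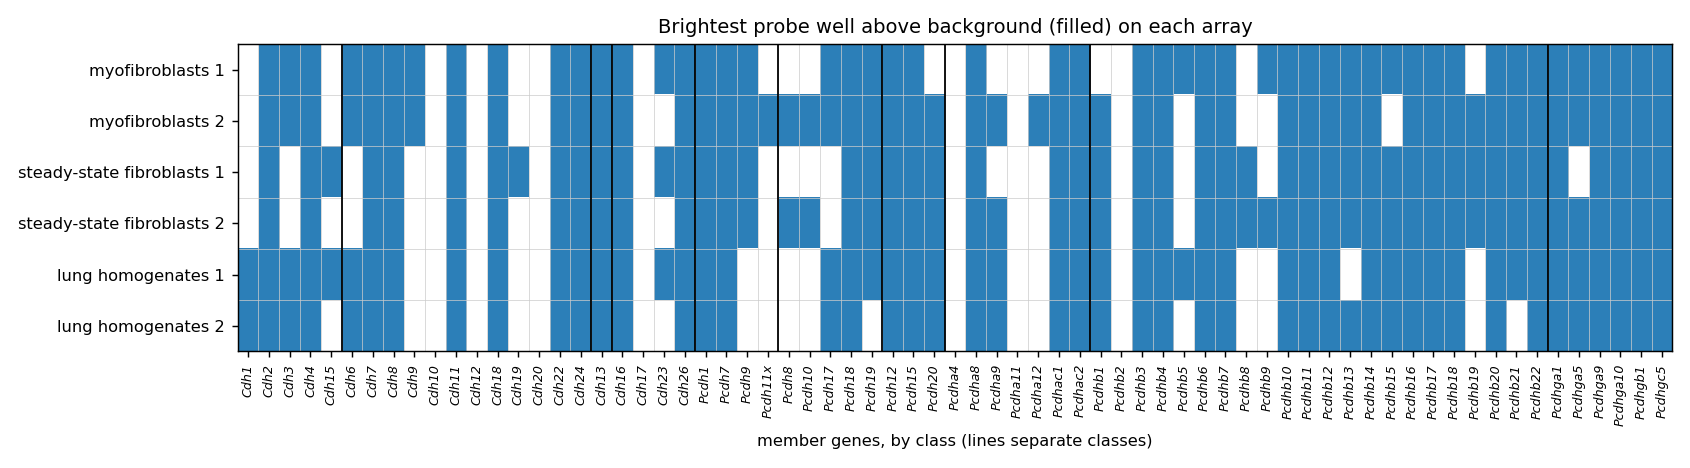
Detection of the 69 members (horizontal axis, grouped by class) on each of the 6 arrays (vertical axis); a filled cell marks a probe well above background. 37 members are filled on all 6 arrays and 7 on none, and each group has 46 members filled on both of its arrays.

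The gates could be checked from marker genes. Itga5 (CD49e) was called higher and Ly6a (Sca-1) and Pdgfra (CD140a) lower in myofibroblasts than in fibroblasts, and all 4 myofibroblast markers tested were called higher. Summed relative signal over 8 endothelial markers was 0.265 and 0.296 in myofibroblasts and 1.72 and 1.45 in fibroblasts. It reached 75.7 and 74.3 in homogenate, and 2, 3, 4, 4, 8 and 8 of the markers were read in this order. Tek made up most of the fibroblast sum, at 1.37 and 1.07. Cdh5 itself was read at 14.9 and 13.5 on the homogenate arrays, at 0.0505 on fibroblast array 1, and was not well above background on the other 3. Over 11 epithelial markers the sum was 11.5 and 17.1, 120 and 70.7, and 816 and 807 in the same order, with 7, 9, 9, 7, 11 and 11 read; Scgb1a1 made up most of it, and Epcam stood at 0.0407 to 0.0654 on the sorted arrays against 1.93 and 2.20. Over 4 smooth muscle markers, all read on every array, the sum was 56.5 and 70.0 in myofibroblasts, 1.44 and 2.54 in fibroblasts and 10.5 and 13.1 in homogenate. Over 5 pericyte markers it was 3.51 and 4.35, 13.6 and 10.6, and 2.61 and 2.61 in the same order. Over 6 Schwann cell markers it was 2.14 and 1.62, 1.81 and 1.02, and 4.48 and 4.66. S100b made up most of this sum in myofibroblasts, at 1.56 and 0.965, and Mbp in homogenate, at 3.76 and 4.02. Over 8 leukocyte markers the sum was 176 to 193 on the sorted arrays against 269 and 279. Itgam made up most of the leukocyte sum, at 151 to 173 on the sorted arrays against 136 and 143 in homogenate. Ptprc stood at 0.0674 or less on the sorted arrays against 23.4 and 23.7. Against homogenate, 6 of the 8 leukocyte markers were called lower in fibroblasts and 5 in myofibroblasts. All 6 fibroblast markers were called higher than in homogenate in fibroblasts, and 5 of them in myofibroblasts. Between the sorted groups all 4 smooth muscle markers were called higher in myofibroblasts. Of 4 endothelial markers tested 1 was called lower (Tek), and of 7 epithelial markers 2 (Sftpc and Scgb1a1). Of 6 fibroblast markers 2 were called higher (Col1a1 and Col1a2) and 2 lower (Pdgfra and Dcn). Of 4 pericyte markers 1 was called higher (Cspg4) and 2 lower (Kcnj8 and Abcc9). Of 4 Schwann cell markers 1 was called higher (S100b) and 1 lower, and of 6 leukocyte markers 1 was called higher (Marco) and 0 lower. The part of these markers in the differences between the sorted groups was not tested. Genes read on both arrays of a group differed by more than 2-fold between those arrays in 23.5% of cases for fibroblasts, 7.84% for myofibroblasts and 2.83% for homogenates, and among members in 8, 7 and 2 of 46. With 2 arrays per group every value has limited precision.

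Between the sorted groups, the comparison named in the series title, 4 members were called higher in myofibroblasts and 11 lower, of 51 tested. A call is a limma adjusted p under 0.05 over all genes tested. The 4 higher ones were Cdh3, Cdh6, Pcdh7 and Pcdh17, all single genes outside the clusters, and 7 of the 11 lower ones belonged to the beta cluster. Over all 16005 genes tested, 17.2% were called, 9.22% higher and 8.02% lower, against 29.4% of the members. The median log2 difference was -0.45 over the members and -0.06 over all genes. The median of all genes itself moved from -0.06 to 0.08 with median scaling and to -0.47 in the authors' deposited table, where the members split into 5 higher and 6 lower, and 4 higher and 16 lower. With the 4 sorted arrays alone 8 of 51 members were called, beside 7.9% of all genes. With array weights per group it was 5 of 51 beside 7.14%, and with no filter on dim probes 9 of 69 beside 8.8%. Each fit without 1 array leaves 1 sample in a group. Without a myofibroblast or homogenate array the count of members fell, and without fibroblast replicate 2 it rose. The share of all genes called moved the same way, and the excess of members over all genes was smaller in each of these fits.

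Among the type I cadherins, which form the adherens junctions of epithelia and many other tissues, Cdh1 (E-cadherin) was read in homogenate alone. Its relative signal was 0.300 and 0.314 on the homogenate arrays and not well above background on any of the 4 sorted arrays. Where no array of a group reads a gene, only a minimum fold can be given. It sets the reading group against the detection limit of the dim arrays, meaning the weakest signal there that was still well above background, or against the gene's own signal if that was stronger. Cdh1 was thus at least 7.17-fold lower in fibroblasts and at least 7.60-fold lower in myofibroblasts than in homogenate (limma adjusted p = 0.00189 and 0.00251). Both calls held under each of the 16 alternatives run for them. Fewer cells of a type and less RNA per cell cannot be told apart in such samples, and the part of the epithelial markers, which were lower in both sorted groups too, was not tested.

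Cdh3 (P-cadherin) had relative signals of 0.257 and 0.106 in myofibroblasts and 0.190 and 0.303 in homogenate, and was not well above background on either fibroblast array. The myofibroblast and homogenate values overlap, and fibroblasts lie below both. It was at least 3.85-fold higher in myofibroblasts than in fibroblasts (adjusted p = 0.0226), and at least 5.59-fold lower in fibroblasts than in homogenate (adjusted p = 0.00878). The first call ended with normexp background correction, with array weights, and without myofibroblast replicate 1, fibroblast replicate 1 or either homogenate replicate (adjusted p up to 0.111). The second ended with normexp and without homogenate replicate 2 (adjusted p up to 0.0652).

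Cdh2 (N-cadherin), the usual cadherin of mesenchymal cells, was read on all 6 arrays, at 1.39 and 1.04 in myofibroblasts, 0.648 and 0.306 in fibroblasts and 0.925 and 0.853 in homogenate. Both myofibroblast arrays lay above all others and both fibroblast arrays below. The log2 difference between the sorted groups was 1.43 ± 0.42 (SE from the spread of all 6 arrays, n = 2 per group). It was not called (adjusted p = 0.0698). Without fibroblast replicate 1, which leaves 1 fibroblast sample, this difference was called. Cdh2 also missed the threshold against homogenate, at -1.0 for fibroblasts and 0.43 for myofibroblasts (adjusted p = 0.169 and 0.473).

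Cdh4 (R-cadherin) gave the opposite order, with 0.0665 and 0.0771 in myofibroblasts, 0.280 and 0.157 in fibroblasts and 0.0736 and 0.119 in homogenate. Both fibroblast arrays were above the other 4, at a log2 difference of -1.55 ± 0.40 between the sorted groups that was not called (adjusted p = 0.0539). It was called without fibroblast replicate 2, which leaves 1 fibroblast sample and raised the share of all genes called as well. A second probe read 0.210 and 0.166 on the fibroblast arrays and was not well above background on the myofibroblast arrays. That probe was called lower in myofibroblasts (adjusted p = 0.0256). Cdh15, a cadherin of muscle precursors, was read on 1 fibroblast and 1 homogenate array and was not tested.

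Type II cadherins bind their own kind through a different adhesive interface, and here Cdh6 (K-cadherin) stood out. Its relative signal was 1.27 and 0.875 in myofibroblasts and 0.186 and 0.0760 in homogenate, and it was not well above background on either fibroblast array. The 3 groups did not overlap. Cdh6 was at least 24.1-fold higher in myofibroblasts than in fibroblasts (adjusted p = 0.00535), a call that held under each of the 16 alternatives (adjusted p up to 0.0498). A second probe, at 1.14 and 0.581 in myofibroblasts and on neither fibroblast array well above background, was called in the same direction (adjusted p = 0.00555). Against homogenate Cdh6 was higher in myofibroblasts by 3.14 ± 0.51 on the log2 scale (adjusted p = 0.00943), a call that ended without myofibroblast replicate 1 (0.0538).

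Cdh11 (OB-cadherin), the cadherin best known from fibroblasts, was read at 10.96 and 8.97 in myofibroblasts, 13.4 and 13.7 in fibroblasts and 4.78 and 5.10 in homogenate. All 4 sorted arrays were above both homogenate arrays. It was higher than in homogenate by 1.46 ± 0.25 in fibroblasts (adjusted p = 0.0120) and by 1.01 ± 0.25 in myofibroblasts (adjusted p = 0.0335). Between the sorted groups the log2 difference of -0.45 ± 0.25 was not called (adjusted p = 0.239), although both fibroblast arrays lay above both myofibroblast arrays. Leaving out either homogenate replicate ended both calls (adjusted p up to 0.113 and 0.211), leaving out either myofibroblast replicate ended the second, and a second probe gave 0.66 and 1.02 with no call (adjusted p = 0.404 and 0.173). The call of myofibroblasts against homogenate also ended with quantile scaling and in the authors' table.

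The remaining type II genes gave no call by their brightest probes. Cdh8 was read at 1.36 and 1.39 in myofibroblasts, 1.55 and 1.32 in fibroblasts and 0.766 and 0.789 in homogenate, so that both sorted groups lay above homogenate, at log2 differences of 0.82 and 0.88 (adjusted p = 0.0549 and 0.0561). Cdh22 was read at 0.456 and 0.416, 0.709 and 0.676, and 0.429 and 0.425 in the same order, highest in both fibroblast samples. Its second probe was called higher than in homogenate in fibroblasts (log2 3.14, adjusted p = 0.00235) and in myofibroblasts (2.54, 0.00426), so the probes of Cdh22 disagree. Cdh9 was read on the myofibroblast arrays alone, at 0.0573 and 0.0517. Its differences, at least 1.27-fold above fibroblasts and 1.40-fold above homogenate, were not called (adjusted p = 0.0745 and 0.139). Cdh24 ranged from 0.0774 to 0.383, Cdh7 from 0.106 to 0.190 and Cdh18 from 0.0581 to 0.143 over the 6 arrays, with adjusted p of at least 0.241 in every comparison. Cdh19, which is known from Schwann cells, was read on fibroblast array 1 alone, at 0.0887.

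Outside the classical types, Cdh13 (T-cadherin), held to the membrane by a lipid anchor, ranged from 0.301 to 0.474 and gave no call. Cdh26 was read at 0.428 and 0.307 in myofibroblasts, 0.990 and 0.896 in fibroblasts and 0.972 and 0.890 in homogenate. Only the myofibroblast arrays were low, at -1.38 ± 0.28 against fibroblasts (adjusted p = 0.0279) and -1.36 ± 0.28 against homogenate (adjusted p = 0.0193). The first call ended without any array but fibroblast replicate 2 (adjusted p up to 0.123), and the second without myofibroblast replicate 2 or either homogenate replicate (up to 0.140). The dimmer second probe of Cdh26 gave 0.17 against homogenate (adjusted p = 0.848). Cdh16 (kidney cadherin) gave no call by its brightest probe, and its second probe was called lower in myofibroblasts than in homogenate (adjusted p = 0.0453).

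Pcdh17 had the largest difference of all members against homogenate. This delta-2 protocadherin was read at 1.98 and 1.80 in homogenate and 0.205 and 0.243 in myofibroblasts, and was not well above background on either fibroblast array. The 3 groups were fully apart. It was at least 44.0-fold lower in fibroblasts than in homogenate (adjusted p = 0.000312), lower in myofibroblasts than in homogenate at a log2 difference of -3.08 ± 0.37 (adjusted p = 0.00345), and at least 5.21-fold higher in myofibroblasts than in fibroblasts (adjusted p = 0.00392). All 3 calls held under every alternative run for them, with adjusted p up to 0.0338. Endothelial and epithelial markers were both highest in homogenate as well, and their part in these differences was not tested.

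Pcdh18, another delta-2 gene, was read at 0.345 and 0.298 in myofibroblasts, 3.36 and 1.51 in fibroblasts and 0.765 and 0.578 in homogenate. Fibroblasts were high, myofibroblasts low and homogenate between, with no overlap. The log2 difference of myofibroblasts from fibroblasts was -2.81 ± 0.44 (adjusted p = 0.0147), and that of fibroblasts from homogenate was 1.76 ± 0.44 (adjusted p = 0.0427). The first ended without either myofibroblast replicate (adjusted p up to 0.0789), and the second without any array but fibroblast replicate 2 (up to 0.231), in a fit of the 4 arrays alone, with array weights and with no filter on dim probes. Pcdh19 was read at 0.579 and 0.524, 0.483 and 0.404, and on 1 of the homogenate arrays at 0.208, with no call in any comparison (adjusted p = 0.0735 for myofibroblasts against homogenate). The brightest probes of Pcdh8 and Pcdh10, the other delta-2 genes, were each read on replicate 2 of both sorted groups and on no homogenate array, and these genes were not tested.

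Among the delta-1 protocadherins, Pcdh7 rose stepwise from homogenate to fibroblasts to myofibroblasts, with 0.0586 and 0.123, 0.280 and 0.396, and 1.42 and 1.27. Myofibroblasts exceeded homogenate by 3.99 ± 0.42 on the log2 scale (adjusted p = 0.00219), which held under all 17 alternatives. They exceeded fibroblasts by 2.01 ± 0.42 (adjusted p = 0.0315) and fibroblasts exceeded homogenate by 1.98 ± 0.42 (adjusted p = 0.0266). Of these, the first ended without either myofibroblast replicate or fibroblast replicate 1 (adjusted p up to 0.119), and the second without any array but homogenate replicate 2 (up to 0.133). Both ended with array weights. The other Pcdh7 probes gave 0.99 and 0.45 between the sorted groups with no call (adjusted p = 0.0740 and 0.292), and both were called higher than in homogenate in each sorted group.

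Pcdh9 was read at 0.380 and 0.284 in fibroblasts and 0.0628 and 0.132 in myofibroblasts, and was not well above background on either homogenate array. It was at least 8.43-fold higher in fibroblasts than in homogenate (adjusted p = 0.00360), which held under all 16 alternatives, and at least 2.34-fold higher in myofibroblasts than in homogenate (adjusted p = 0.0312). The latter call ended without myofibroblast replicate 2 or either homogenate replicate (adjusted p up to 0.180), with normexp and in the authors' table. Between the sorted groups it stood at -1.85 ± 0.43 (adjusted p = 0.0419), a call that 12 of 17 alternatives ended, among them quantile and median scaling and each array left out but myofibroblast replicate 2 (up to 0.123). A second probe gave a call in the same direction (adjusted p = 0.0267).

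Pcdh1, the delta-1 protocadherin known from airway epithelium, was read at 4.32 and 4.24 in homogenate, 0.731 and 0.630 in fibroblasts and 0.591 and 0.538 in myofibroblasts. Homogenate was far above both sorted groups, with log2 differences of -2.66 ± 0.24 for fibroblasts (adjusted p = 0.00150) and -2.92 ± 0.24 in myofibroblasts (adjusted p = 0.000951), and both calls held under all 17 alternatives. A second probe gave called differences of -4.65 and -3.65, while another read 0.800 to 0.969 on all 6 arrays and gave none (adjusted p = 0.733 and 0.937). The part of the epithelial and endothelial markers in this difference was not tested. Each of the 2 probes of Pcdh11x was read on 1 array, and the gene was not tested.

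Pcdh15, a component of the tip links of inner ear hair cells, was read at 1.75 and 1.34 in myofibroblasts, 3.21 and 3.36 in fibroblasts and 2.36 and 2.86 in homogenate. It was lower in myofibroblasts than in fibroblasts, at -1.10 ± 0.27 (adjusted p = 0.0462). Leaving out any 1 array ended this call (adjusted p up to 0.189), as did median scaling, and the 2 other probes that were tested gave -0.19 and 0.12 with no call (adjusted p = 0.675 and 0.779). Pcdh20 was 0.969 and 0.174 in fibroblasts, 0.115 and 0.190 in homogenate, and 0.0729 on 1 myofibroblast array with the other not well above background. The difference between the sorted groups, -3.98 ± 1.20, was not called (adjusted p = 0.0752). Pcdh12 (VE-cadherin-2), an endothelial protocadherin, gave no call by its brightest probe, and its second probe, at 0.775 and 0.790 in homogenate against 0.0649 to 0.122 on the sorted arrays, was called lower in both sorted groups (adjusted p = 0.00351 and 0.00282). The endothelial markers showed the same order, and their part was not tested.

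**Figure D2:**
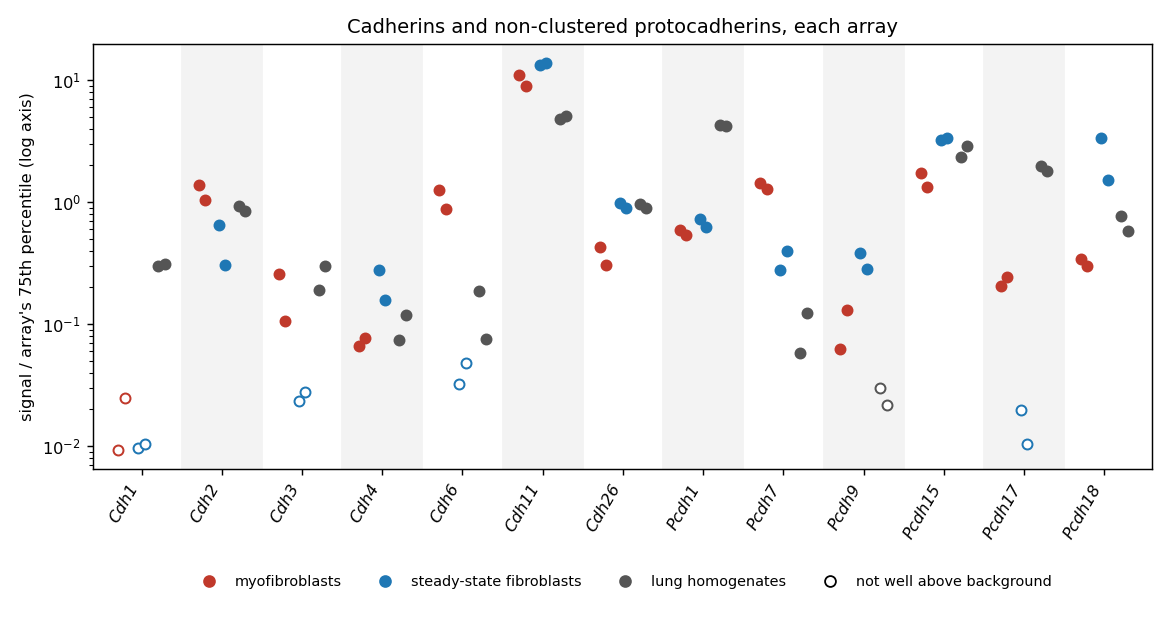
Relative signal (log axis, signal divided by the array's 75th percentile) of 13 cadherins and non-clustered protocadherins, 1 point per array, coloured by group; open points were not well above background. Cdh6 lies at 1.27 and 0.875 in myofibroblasts with both fibroblast points open, Pcdh17 is highest in homogenate, and Pcdh18 is highest in fibroblasts.

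The beta protocadherins, each coded by a single exon, were the largest class that shifted together. Steady-state fibroblasts were the high group. Of 19 beta genes read on both arrays of some group, 15 had both fibroblast arrays above the other 4 arrays, a pattern shown by 15.9% of all genes. For 0 of the 19 were both myofibroblast or both homogenate arrays on top, as they were for 21.8% and 20.4% of all genes. All 19 were read on both fibroblast arrays, so the rule that admitted them favours this order. Pcdhb8, among the 15, was read on the fibroblast arrays alone, which all but fixes its order. Summed over the 22 genes, relative signal was 18.4 and 13.3 in fibroblasts, 7.02 and 7.86 in myofibroblasts and 4.99 and 4.82 in homogenate. The beta genes resemble one another in sequence, and nothing in the files shows how far a probe for one also binds the transcript of another.

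Against homogenate, 13 of 19 tested beta genes were higher in fibroblasts and 0 lower, with a median log2 difference of 2.13 beside 0.03 over all genes. Here too some genes entered through fibroblasts alone. Among the 15 beta genes read on all 4 arrays, 14 values were positive and the median was 2.10. In that setting 10 were called higher, where 13.8% of all genes were called. In the same comparison 23 of 52 members were called, 18 higher and 5 lower, or 44.2%, against 19.9% of all 17062 genes tested, 8.09% higher and 11.8% lower. Without either homogenate replicate, which leaves 1 homogenate sample, that count of members fell, as did the share of all genes called. Pcdhb21 was read at 0.499 and 0.373 in fibroblasts and at 0.0671 on the 1 homogenate array that read it. Its difference was 3.15 ± 0.47 (adjusted p = 0.00797). Pcdhb17 stood at 2.25 and 0.977 in fibroblasts against 0.204 on both homogenate arrays, a difference of 2.86 ± 0.43 (adjusted p = 0.00798). Pcdhb20 stood at 2.06 and 1.39 against 0.324 and 0.273, and its difference of 2.51 ± 0.31 (adjusted p = 0.00406) was the beta call that held under all 17 alternatives. The other called genes were Pcdhb3, Pcdhb4, Pcdhb6, Pcdhb7, Pcdhb10, Pcdhb14, Pcdhb16, Pcdhb18, Pcdhb22 and, as a bound of at least 1.64-fold, Pcdhb19. Their fitted log2 differences ran from 1.21 in Pcdhb4 to 2.74 in Pcdhb22, leaving out the bounded gene. Without either homogenate replicate most of the higher beta calls ended, and with any other array left out most were kept. All 6 fibroblast markers were called higher in this comparison too, and their part was not tested.

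Between the sorted groups, 7 of the same 19 beta genes (36.8%) were lower in myofibroblasts and 0 higher, beside 8.02% of all genes called lower and 17.2% called in all. The median difference was -1.14, against -0.06 over all genes, and 18 of the 19 values were negative. All 19 were read on both fibroblast arrays and 15 on both myofibroblast arrays, so some entered the test through the higher group alone. Among the 15 beta genes read on all 4 arrays, 14 values were negative and the median was -1.14. In that setting 7 were called lower, where 15.2% of all genes were called. Pcdhb18 was read at 0.330 and 0.353 in myofibroblasts and 1.72 and 0.980 in fibroblasts, a difference of -1.93 ± 0.34 (adjusted p = 0.0202). Pcdhb4 was read at 0.0609 and 0.0728 in myofibroblasts against 0.269 and 0.199 in fibroblasts, a difference of -1.80 ± 0.28 (adjusted p = 0.0152). In Pcdhb16 the arrays of a group lay close together, with 0.265 and 0.265 in myofibroblasts and 0.818 and 0.806 in fibroblasts, and the difference was -1.62 ± 0.32 (adjusted p = 0.0269). The other called genes were Pcdhb17 (-1.93), Pcdhb14 (-1.72), Pcdhb22 (-1.64) and Pcdhb20 (-1.37), with adjusted p from 0.0296 to 0.0427. The fibroblast and myofibroblast arrays did not overlap in any of the 7. With 2 arrays per group a call nearly requires this, so it adds nothing to the calls.

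The size and the calls of this difference depended on the arrays and on the settings. With the 4 sorted arrays alone or with array weights 2 of 19 beta genes were called lower, where 7.9% and 7.14% of all genes were called. With median scaling it was 4 of 19 beside 16.9%, and with no filter on dim probes 4 of 22 beside 8.8%. With the replicate block it was 5 of 19 beside 13.9%. Each fit without 1 array leaves 1 sample in a group. All the lower calls listed above ended without either myofibroblast or either homogenate replicate, and some ended without fibroblast replicate 1. Without fibroblast replicate 2 the count of lower beta genes rose, as did the share of all genes called. The median stood at -1.02 with quantile scaling, -1.01 with median scaling, -1.56 in the authors' table and -0.54 with normexp, and 17 to 19 of the 19 values were negative under each. Between the fibroblast arrays themselves, 14 of 19 beta genes were higher on replicate 1, with a median log2 difference of 0.57, beside 58.4% of all genes and a median of 0.16. The pericyte marker Kcnj8 was also highest in fibroblasts, at 1.14 and 1.52 in myofibroblasts, 9.03 and 5.74 in fibroblasts and 0.601 and 0.613 in homogenate. Abcc9, another pericyte marker, stood in fibroblasts at 3.72 and 3.88 against 0.163 to 0.540 on the other 4 arrays. The remaining pericyte markers did not share this order. Cspg4 was at 1.26 and 1.57 in myofibroblasts against 0.147 and 0.147 in fibroblasts. Notch3 ranged from 0.669 to 1.12 over the arrays, and Rgs5 was highest in homogenate, at 0.351 and 0.493. Of the fibroblast markers, Pdgfra, Dcn and Lum were highest in fibroblasts too, and Col1a1, Col1a2 and Col3a1 were highest in myofibroblasts. The part of such markers in the beta difference was not tested.

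**Figure D3:**
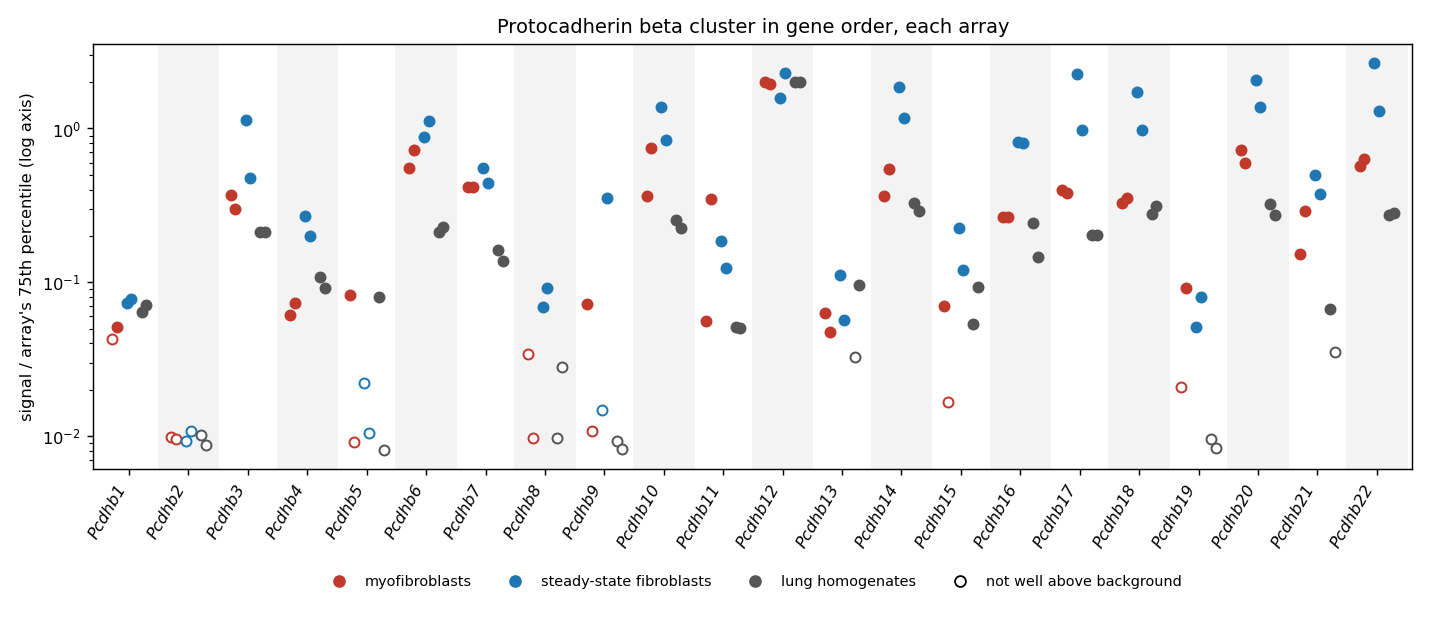
Relative signal (log axis, signal divided by the array's 75th percentile) of the 22 beta protocadherins in their order along the cluster, 1 point per array, coloured by group; open points were not well above background. Both fibroblast points lie above the other 4 in 15 of the 19 genes read on both arrays of some group.

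Against homogenate, myofibroblasts kept a smaller difference. Of 17 beta genes tested, 4 were higher and 0 lower, with a median of 0.65 beside -0.01 over all genes. The 4 were Pcdhb21 at 2.11 ± 0.47, Pcdhb6 at 1.52 ± 0.28, Pcdhb7 at 1.49 ± 0.26 and Pcdhb20 at 1.14 ± 0.31 (adjusted p = 0.0255, 0.0142, 0.0118 and 0.0447). Over all members this comparison called 8 higher and 5 lower of 51, or 25.5%, against 26.9% of all 17162 genes tested, 11.9% higher and 15% lower, so the share of members was close to the background. With the 4 arrays alone 20 of 51 members were called, beside 43% of all genes, and with array weights 23 of 51 beside 45.4%. Each fit without 1 array leaves 1 sample in a group. The count of members then fell without myofibroblast replicate 2 or either homogenate replicate and rose without either fibroblast replicate. The share of all genes called moved the same way. The split was 13 higher and 4 lower with median scaling and 5 higher and 11 lower in the authors' table, which put the all-gene median at 0.39 and -0.51. The authors' table had 3 beta genes higher, 2 lower and a beta median of 0.15. The higher calls of beta genes ended without myofibroblast replicate 2 or either homogenate replicate. They became more numerous without either fibroblast replicate, where the share of all genes called rose too.

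Along the chromosome the calls were not spread evenly. Of the last 9 genes of the cluster, Pcdhb14 to Pcdhb22, 6 were lower in myofibroblasts than in fibroblasts, against 1 of the 10 tested among Pcdhb1 to Pcdhb13. The medians of these stretches were -1.64 and -0.67. The stretches were chosen after the values were seen, and their difference was not tested. Against homogenate, fibroblasts were called higher in 8 of the last 9 genes and in 5 of the 10 tested before them.

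**Figure D4:**
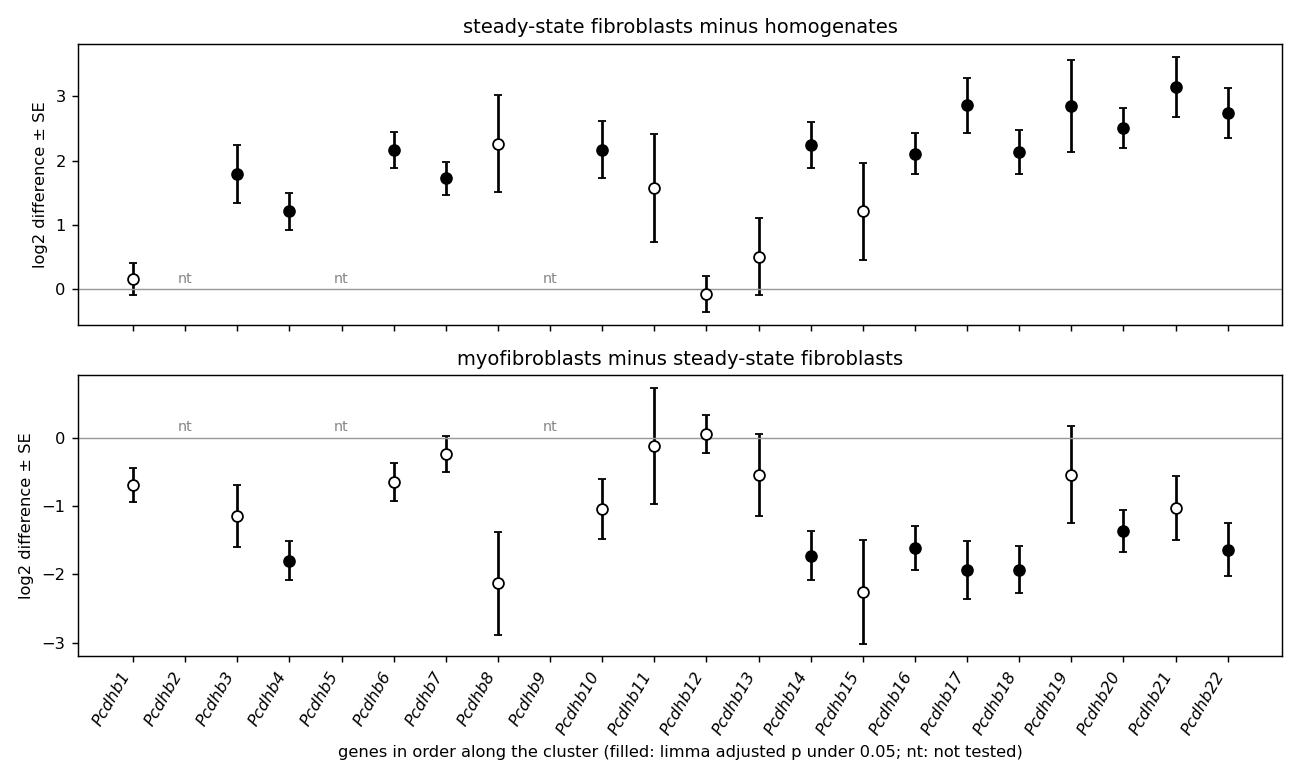
Log2 difference ± SE of each beta protocadherin in its order along the cluster, for fibroblasts minus homogenates (upper panel) and myofibroblasts minus fibroblasts (lower panel); filled points have a limma adjusted p under 0.05 and nt marks genes not tested. In the upper panel 13 genes are filled, all above 0, and in the lower panel 7, all below 0.

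Of the beta genes tested, Pcdhb1, Pcdhb8, Pcdhb11, Pcdhb12, Pcdhb13 and Pcdhb15 gave no call in any comparison. Pcdhb12 was read at 2.003 and 1.95 in myofibroblasts, 1.58 and 2.29 in fibroblasts and 2.002 and 2.006 in homogenate, with differences between -0.08 and 0.06. Pcdhb8 was read on the fibroblast arrays alone, at 0.0692 and 0.0913, and its differences of at least 1.97-fold from myofibroblasts and at least 2.04-fold from homogenate were not called (adjusted p = 0.107 and 0.1002). Pcdhb15 was 0.224 and 0.120 in fibroblasts, 0.0705 on the 1 myofibroblast array that read it, and 0.0535 and 0.0932 in homogenate, with no call. Pcdhb11 was above background everywhere, with 0.0557 and 0.349 in myofibroblasts, a spread within 1 group nearly as wide as over all arrays.

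The alpha and gamma clusters, in which variable first exons join shared constant exons, gave few calls. Pcdhac2, one of the C-type genes at the end of the alpha cluster, was read at 0.130 and 0.208 in myofibroblasts, 0.191 and 0.145 in fibroblasts and 0.819 and 0.615 in homogenate. Both sorted groups overlapped with each other and lay below homogenate, at -2.11 ± 0.35 in myofibroblasts and -2.10 ± 0.35 in fibroblasts (adjusted p = 0.0101 and 0.0117), calls that ended without either homogenate replicate (up to 0.0828 and 0.0937). Of the other alpha genes, Pcdha8 and Pcdhac1 were read on all arrays, at 0.223 to 0.381 and 0.0702 to 0.0952, and Pcdha9 on both homogenate arrays and replicate 2 of each sorted group, all without a call. Between the sorted groups 0 of 3 alpha genes and 0 of 6 gamma genes were called by limma, with 0 and 1 at an unadjusted p under 0.05.

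Of the gamma genes, Pcdhga9 was read by 2 probes. The brighter gave 144 and 175 in myofibroblasts, 291 and 200 in fibroblasts and 78.0 and 77.6 in homogenate, and the dimmer 13.1 and 15.6, 18.8 and 19.1, and 5.63 and 4.91. By both probes fibroblasts were highest and homogenate lowest. The brighter probe was called between fibroblasts and homogenate, at 1.63 ± 0.29 (adjusted p = 0.0146), a call that ended without either homogenate replicate (up to 0.112), and was not called between myofibroblasts and homogenate (1.03, adjusted p = 0.0514). The dimmer was called in both (adjusted p = 0.00545 and 0.0111). Since gamma transcripts share their last exons and the probe sequences were not used here, which isoforms these probes read is not known. Pcdhgc5 went the other way, with 0.344 and 0.405 in myofibroblasts, 0.117 and 0.201 in fibroblasts and 0.194 and 0.176 in homogenate. Its difference between the sorted groups, 1.28 ± 0.34, was not called (adjusted p = 0.0549). It was called without fibroblast replicate 2, a fit with 1 fibroblast sample in which more of all genes were called as well. Pcdhga1, Pcdhga5, Pcdhga10 and Pcdhgb1 gave no call in any comparison.

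Lists of genes that work with the cadherins had shares called between the sorted groups from 0% to 21.4%, on either side of that of all genes. Of 15 catenins and adherens junction partners tested, 1 was higher and 1 lower in myofibroblasts, or 13.3% beside 17.2% of all genes. Nectin3, an adhesion receptor that joins adherens junctions, was read at 4.91 and 5.53 against 2.14 and 2.66 in fibroblasts (1.13 ± 0.26, adjusted p = 0.0400). Arvcf, a catenin of the p120 family, was read at 0.265 and 0.537 against 1.78 and 2.27 (-2.41 ± 0.41, adjusted p = 0.0188). Leaving out 1 array ended both calls (adjusted p up to 0.164 for Nectin3, without any but fibroblast replicate 2, and up to 0.0608 for Arvcf, without myofibroblast replicate 1 or either homogenate replicate), and quantile scaling and the authors' table ended that of Nectin3. Of 7 desmosome genes 1 was called, or 14.3%. This was Pkp1 (plakophilin 1), which was read at 0.219 and 0.1002 in myofibroblasts and not well above background on the fibroblast arrays. It was at least 3.46-fold higher (adjusted p = 0.0223), which ended without myofibroblast replicate 1 or either homogenate replicate (up to 0.0711).

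In the wider cadherin superfamily 2 of 14 genes were higher and 1 lower in myofibroblasts, or 21.4% called beside 17.2% of all genes. Fjx1, the mouse relative of a kinase that acts on Fat and Dachsous cadherins, was read at 0.785 and 0.859 against 0.221 and 0.229 in fibroblasts and 0.217 and 0.229 in homogenate. Its difference of 1.87 ± 0.23 between the sorted groups (adjusted p = 0.00784) held under all 17 alternatives. Fat4, a giant cadherin of planar polarity, was read at 1.84 and 1.85 against 3.89 and 3.79 (-1.06 ± 0.24, adjusted p = 0.0372), a call that ended with median scaling and without either myofibroblast or either homogenate replicate (up to 0.140). Cdhr3 was read at 1.22 and 0.955 against 0.292 and 0.518 (1.47 ± 0.36, adjusted p = 0.0457), a call that ended in the authors' table and without any array but fibroblast replicate 2 (up to 0.160). Fat1 was read at 16.6 and 14.5 in myofibroblasts, 8.25 and 3.99 in fibroblasts and 2.70 and 2.35 in homogenate, and was called between myofibroblasts and homogenate (2.62 ± 0.40, adjusted p = 0.00756).

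Of 8 genes whose products cleave cadherins 0 were called between the sorted groups by limma, with 2 at an unadjusted p under 0.05. Of 12 genes that regulate the clustered protocadherins 1 was called, or 8.33% beside 17.2% of all genes, the cohesin subunit gene Stag2, which was read at 1.29 and 1.60 in myofibroblasts and 5.75 and 3.54 in fibroblasts. Its difference was -1.65 ± 0.33 (adjusted p = 0.0288), a call that ended without either myofibroblast or either homogenate replicate (up to 0.116). Of 10 genes of the WAVE complex, the actin regulator that several delta protocadherins bind, 1 was higher and 1 lower, or 20% called. Cyfip2 was read at 0.295 and 0.209 in fibroblasts and 2.71 and 2.90 in homogenate and not well above background in myofibroblasts, at least 6.15-fold lower than in fibroblasts (adjusted p = 0.00132), and this held under all 16 alternatives. Brk1 was read at 5.28 and 6.19 against 0.899 and 2.27 (2.0 ± 0.47, adjusted p = 0.0414), a call that ended with quantile scaling, in the authors' table and without either myofibroblast or either homogenate replicate (up to 0.166).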

How the data were processed

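Expression was measured on 6 1-colour arrays, grouped by their labels. Intensity values of spots, in the deposited scanner files, came from Agilent Feature Extraction 12.0.3.1, per the file headers and the submitters' processing notes. Per the file headers, its processed signal has local background and spatial trends removed. The authors' deposited table of normalized intensity values was this signal times 1 constant per array, between 5.17 and 6.93.

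Each array's processed signal was divided by its 75th percentile (224 to 282) and put on the log2 scale, spots of a probe were averaged, and probes were named by transcript accession through RefSeq, which named 32994 of 56605. Spots marked as outliers were left out. Between 65.5% and 73.4% of spots were well above background on an array. Genes entered a test if both arrays of either group compared read their brightest probe well above background. Differences were tested two-sided with limma 3.58.1 in R 4.3.3 (lmFit, eBayes) in 1 fit of 3 groups with 3 residual degrees of freedom, 5.57 with the prior, and adjusted by Benjamini-Hochberg over all genes tested. SE is limma's. The fit was tested on simulated data. All arrays shared 1 slide and 1 scan, and both homogenates lay in a slide row of their own, and these cannot be told apart.

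The text names the type I and II cadherins read on both arrays of a group, every other member with a call or read in 1 group and in no array of another, and, of related lists, the called genes with the largest differences. The members, lists and tests were chosen with earlier results of these data known. Genes outside this rule, and the stretches of the beta cluster, were chosen with their values in view. The alternatives comprised normexp (offset 50, on the median spot signal, as no mean is held), quantile and median scaling, the authors' table, 2 other filters, the mean of a gene's probes, the arrays in the fit, an intensity trend, array weights, a replicate block and each array left out.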

Additional observations from a re-analysis of the deposited data

How the results depend on the processing

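Of 51 called differences of members, 11 kept their call under every alternative run for them, 40 lost it under at least 1, and 0 changed sign. The 11 were those of Cdh1, Pcdh1 and Pcdh17 against homogenate in both sorted groups, of Cdh6 and Pcdh17 between the sorted groups, of Pcdh7 in myofibroblasts against homogenate, and of Pcdh9 and Pcdhb20 in fibroblasts against homogenate. Of 31 differences over 1 on the log2 scale that were not called, 22 were called under at least 1 alternative, which may be a fit with 1 sample in a group. The count of called members between the sorted groups was 15, beside 17.2% of all genes called. It was 9 with no filter on dim probes, 8 with only the 4 arrays compared and 5 with array weights per group. The shares of all genes in these settings were 8.8%, 7.9% and 7.14%. For myofibroblasts against homogenate the count of members was 13, and 20 and 23 in the last 2 of these settings. The shares of all genes there were 26.9%, 43% and 45.4%. Leaving out 1 array gave 4 to 18 between the sorted groups, 7 to 27 for fibroblasts against homogenate (23 with all arrays) and 5 to 20 for myofibroblasts against homogenate. Pcdhb15 in myofibroblasts against homogenate, not called, turned from -1.04 to 0.12 with normexp. Leaving out an array leaves fewer samples and also changes the spread that the 3 comparisons share. The cause of these changes was not tested. With the replicate number as a block the counts of members were 11, 22 and 11, beside 13.9%, 18.9% and 23.6% of all genes. Samples of the same number did not deviate together (correlations 0.07, 0.04 and -0.01). The labels give them no more in common than the number, and such correlations cannot show whether they share an origin. The block was therefore not taken as a pairing. Signals near background limit what can be said of the dim alpha genes and of Cdh9, Cdh19 and Pcdhb8.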
